A study of Mus musculus with 4 samples.

Results

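The regions described here are stretches of mouse chromatin bound by the transcription factor WT1 that lie outside genes but not far from them. They were chosen from the authors' table of peaks found in both WT1 replicates by 3 conditions: an irreproducible discovery rate (IDR, the estimated share of calls up to that rank that would not recur between replicates) of 0.05 or lower, a midpoint outside every protein-coding RefSeq gene on chromosomes 1 to 19, and a distance of more than 1 kb and at most 50 kb to the nearest end of such a gene. These conditions left 911 regions of the 17234 in the table. Of the 4360 reproducible regions on chromosomes 1 to 19 they made up 20.9% (95% Clopper-Pearson interval 19.7 to 22.1, counting error over regions only). Because the IDR chose the regions, IDR and the significance values of the replicates are given below as a description of them, without a test.

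The study mapped WT1 by chromatin immunoprecipitation and sequencing (ChIP-seq) in whole kidneys dissected from wildtype mouse embryos at stage E18.5, late in embryonic life. All mice were of a mixed background, C57Bl6 crossed with B6DBA/F1. There were 2 samples precipitated with the WT1 antibody C-19 (sc-192), each giving a peak list, and 2 precipitated with IgG (sc-2027) as a negative control, which were not analysed here. Not given in the sources used here was the number of embryos behind each sample, so the spread between replicates may be technical. The replicate lists held 53132 and 57641 peaks without read counts, which leaves their depth unknown. In whole kidneys a site bound in more cells and a site bound more strongly in each cell cannot be told apart.

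WT1 is a zinc finger protein that binds GC-rich DNA and is named for Wilms' tumour, a childhood kidney cancer. In the embryonic kidney it is made in the nephron progenitors, which form the nephron epithelium, and it remains high in podocytes, the cells that wrap the capillaries of the glomerular filter. Many transcription factors of development bind enhancers, stretches of DNA between or within genes that can act on a gene at a distance, so the nearest gene is a label of position and not a known target.

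Sequence could be read for the few regions that overlapped the promoter window of an annotated gene, whether or not they reached its start. RefSeq promoter windows of GRCm38.p6, reaching from 250 bases before to 50 bases after a gene's start, overlapped 30 of the 911 regions in 34 windows. All 34 windows belonged to genes that are not protein-coding, since the regions were chosen away from protein-coding ones, and 17 regions each overlapped a window by at least 200 bases. In all, 6 of these stretches are printed as examples, chosen by motif and IDR. They are the 4 of lowest IDR with a match to a searched motif and the 2 of lowest IDR without. This choice sets the share with a match among the printed stretches. Each is named by the nearest protein-coding gene and the non-coding gene whose promoter window it lies in. That of Calm2 and Gm30794 covers only bases before the start of Gm30794. Each reads 5′ to 3′ on the strand of the non-coding gene. It is lower case except for the match, which is in capitals as it reads on the printed strand. The positions are chr2:172863544-172863843 (minus strand) for Bmp7 and Gm36254, chr3:94917715-94918014 (plus) for Selenbp1 and Gm36237, chr15:102746860-102747159 (minus) for Calcoco1 and Cistr, chr17:87459501-87459728 (minus) for Calm2 and Gm30794, chr2:27540176-27540475 (plus) for Wdr5 and Gm13421, and chr6:30460735-30461034 (plus) for Klhdc10 and 1700012C14Rik.
Bmp7 and Gm36254: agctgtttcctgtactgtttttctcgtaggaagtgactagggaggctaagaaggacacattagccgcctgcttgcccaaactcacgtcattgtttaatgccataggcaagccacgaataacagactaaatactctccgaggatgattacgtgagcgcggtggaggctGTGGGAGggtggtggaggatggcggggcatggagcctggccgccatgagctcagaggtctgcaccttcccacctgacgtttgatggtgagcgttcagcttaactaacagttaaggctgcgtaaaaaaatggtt
Selenbp1 and Gm36237: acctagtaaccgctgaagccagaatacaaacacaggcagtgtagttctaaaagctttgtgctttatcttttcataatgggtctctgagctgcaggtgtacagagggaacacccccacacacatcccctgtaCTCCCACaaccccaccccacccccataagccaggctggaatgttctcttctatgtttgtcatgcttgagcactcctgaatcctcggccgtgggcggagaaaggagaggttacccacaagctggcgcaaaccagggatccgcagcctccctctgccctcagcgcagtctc
Calcoco1 and Cistr: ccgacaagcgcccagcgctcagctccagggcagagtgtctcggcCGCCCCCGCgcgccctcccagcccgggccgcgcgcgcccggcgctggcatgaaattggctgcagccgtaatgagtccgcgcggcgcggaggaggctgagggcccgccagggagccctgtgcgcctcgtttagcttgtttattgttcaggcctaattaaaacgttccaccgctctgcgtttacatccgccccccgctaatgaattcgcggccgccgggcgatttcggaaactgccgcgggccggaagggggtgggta
Calm2 and Gm30794: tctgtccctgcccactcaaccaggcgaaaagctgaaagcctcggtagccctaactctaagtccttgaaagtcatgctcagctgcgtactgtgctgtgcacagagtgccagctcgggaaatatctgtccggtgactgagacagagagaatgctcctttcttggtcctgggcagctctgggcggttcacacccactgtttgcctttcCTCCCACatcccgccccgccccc
Wdr5 and Gm13421: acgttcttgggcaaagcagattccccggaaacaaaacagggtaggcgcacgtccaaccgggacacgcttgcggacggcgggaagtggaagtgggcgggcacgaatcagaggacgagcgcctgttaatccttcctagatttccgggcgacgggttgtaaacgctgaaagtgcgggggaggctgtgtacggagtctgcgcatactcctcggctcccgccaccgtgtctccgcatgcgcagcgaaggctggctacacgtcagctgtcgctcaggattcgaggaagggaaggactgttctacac
Klhdc10 and 1700012C14Rik: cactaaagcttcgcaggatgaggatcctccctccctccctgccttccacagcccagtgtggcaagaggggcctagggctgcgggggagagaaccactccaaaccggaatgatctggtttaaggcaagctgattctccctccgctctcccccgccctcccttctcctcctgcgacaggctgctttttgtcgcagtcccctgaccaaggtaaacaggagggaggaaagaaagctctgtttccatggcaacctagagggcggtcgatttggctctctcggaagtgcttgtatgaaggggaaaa

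The motifs searched, on both strands, were GCGTGGGAG, a WT1 site, its core GTGGGAG, which lies within it, GCGGGGGCG, the site of the related factor EGR1, and the repeat TCCTCCTCC. In the first stretch, 4.55 kb outside Bmp7, the core GTGGGAG stands on the printed strand. In the stretches of Selenbp1 and Calm2 the core lies on the other strand, and in that of Calcoco1 GCGGGGGCG lies on the other strand. Of the 17 windows, 6 (35.3%, 95% Clopper-Pearson interval 14.2 to 61.7) held GTGGGAG, against 9.73% of all 32817 windows and 9.15% of the 11587 windows of genes that are not protein-coding. GCGGGGGCG was in 2 of 17 (11.8%, 1.46 to 36.4) against 2.91% and 1.15%. Neither GCGTGGGAG nor TCCTCCTCC was in any of the 17, which allows a share of up to 19.5% by the same interval, and they were in 0.472% and 3.03% of all windows. Median GC content was 54.0% in the 17 windows, 52.7% in all windows and 48.3% in those of non-coding genes. A match is a description of the letters and does not locate the bound site, and windows of 17 regions do not stand for all 911.

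The first question was where the regions lay relative to the nearest gene. Distances ran from 1.006 to 49.9 kb with a median of 13.6 kb (interquartile range 4.84 to 27.7), and 376 regions (41.3%, 38.1 to 44.5) were within 10 kb. Because the distance bins held unequal lengths of intergenic sequence, counts were also set against that length in each bin. It came to 551 Mb in all (1.65 regions per Mb). Density was 2.47 regions per Mb at 1 to 2 kb (74 regions, 95% exact Poisson interval 1.94 to 3.10) and 2.10 at 2 to 5 kb (160 regions, 1.79 to 2.45). From 5 to 50 kb it lay between 1.46 and 1.68 in each interval. The interval of the first bin overlapped none of those from 5 kb on except that of 30 to 40 kb (1.39 to 2.01), while those of 5 to 10 kb (1.23 to 1.73) and 40 to 50 kb (1.23 to 1.90) did, so no further fall with distance was resolved beyond 5 kb.

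Of the 3675 regions of the overlap table in this zone, 24.8% were reproducible, against 25.7% of all 16998 regions on these chromosomes, so the zone held reproducible regions at about the overall rate. The rate was 34.6% within 1 kb of gene ends, 25.5% inside genes and 20.5% more than 50 kb from any gene. Between 1 and 50 kb it was from 23.1% to 27.3% in the 7 distance bins with no order along distance, and the density of all overlap regions, reproducible or not, fell from 9.65 per Mb at 1 to 2 kb to 6.35 at 5 to 10 kb. The higher density close to genes was therefore present before the IDR was applied.

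**Figure D1:**
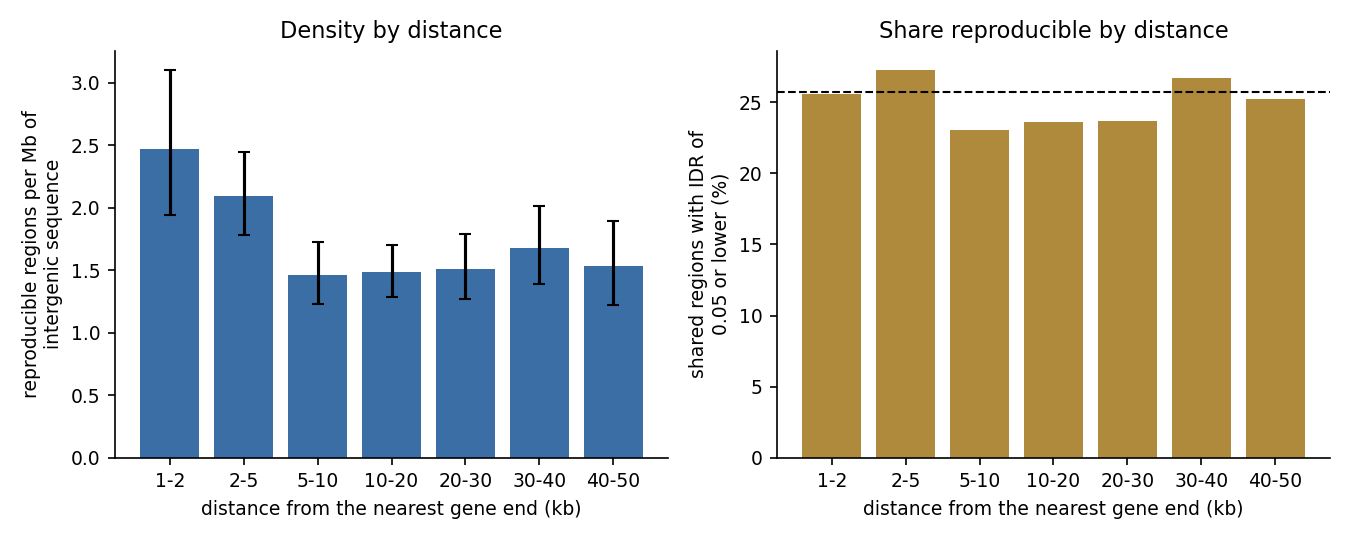
Left, reproducible intergenic regions per Mb of intergenic sequence in 7 bins of distance (kb) from the nearest gene end, with 95% exact Poisson intervals as error bars; right, the share of overlap regions in each bin with an IDR of 0.05 or lower, with a dashed line at the 25.7% of all regions on chromosomes 1 to 19. Density is highest at 1 to 2 kb (2.47 per Mb) and between 1.46 and 1.68 from 5 kb on, and the shares lie between 23.1% and 27.3%.

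The strand of the nearest gene was known for 665 regions. Of these, 343 (51.6%, 47.7 to 55.4) lay on its 5′ side and 322 on its 3′ side, so neither side held more than the counting error allows. Of the 2764 overlap regions of the zone that were not reproducible, 2125 had a nearest gene of known strand. Among these 2125, 54.7% (52.5 to 56.8) lay on the 5′ side. Many regions could belong to more than 1 gene by position. A second protein-coding gene was within 50 kb of 405 regions (44.5%), and for 245 (26.9%) it was less than 2 times as far as the first. Of the 911 regions, 177 (19.4%) lay inside a RefSeq gene that is not protein-coding, among them the region near Wt1 inside Wt1os, an RNA transcribed next to Wt1. By chromosome, density ran from 0.975 per Mb on chromosome 7 to 2.69 on chromosome 15.

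The second question was which genes lay next to these regions. The 911 regions had 764 nearest genes, 3.7% of the 20665 protein-coding genes on chromosomes 1 to 19. Of these genes, 657 were nearest to 1 region, 80 to 2, 21 to 3 and 6 to 4 or more. Counting both flanking genes within 50 kb gave 1084 genes, 5.25% of all. Of the 764, 125 (16.4%) also had at least 1 reproducible region inside the gene, against 6.71% of all genes, 69 (9.03%) carried 1 or more at a gene end (within 1 kb), against 4.30%, and 588 (77.0%) had neither.

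The 20 regions with the lowest IDR lay next to genes of diverse functions. In the first 4 and the sixth, next to Aak1, Skap1, Atp5mpl, Pard6b and Slamf9, the significance value was listed as 0 in both replicates, and these were the 5 regions of the 911 with a 0 in replicate 1. Aak1, a kinase of clathrin-mediated endocytosis, was 26.8 kb away with Anxa4 almost as near at 28.8 kb. Skap1, an adaptor of T cell receptor signalling, was 42.8 kb away and the homeobox gene Hoxb1 53.5 kb on the other side. Pard6b, a scaffold of apical cell polarity, was the closest of the 5 at 8.06 kb. At Slamf9, an immune cell receptor, the distance was 21.7 kb.

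Among the next in order were regions at Skor1, a transcriptional corepressor (45.8 kb, values 9.59e-71 and 0 in replicates 1 and 2), Midn (3.34 kb, 1.38e-71 and 0), and Ppp1r9b, which encodes spinophilin, a protein that brings a phosphatase to actin (1.37 kb, 5.91e-65 and 0). The region of Inpp5f, a phosphoinositide phosphatase, lay 19.5 kb away (2.21e-78 and 0). Ptpn13 encodes a protein tyrosine phosphatase, and its region was 48.0 kb away (1.69e-65 and 0). Tnni1, a slow muscle troponin, had a region at 3.98 kb (1.69e-55 and 2.43e-90). Tgfbi, a secreted matrix protein induced by TGF-beta, had 3 regions, that of lowest IDR at 27.2 kb (1.13e-55 and 2.15e-82). Midn was also nearest to 3 regions in all and Skor1 to 2. Neurl1b, a ubiquitin ligase of Notch ligands, had 1 at 17.1 kb (6.4e-45 and 4.5e-82). Arl4c, a small GTPase, and B4galt1, a galactosyltransferase of the Golgi, had 1 each at 19.8 kb (5.11e-51 and 7.74e-100) and 20.6 kb (8.86e-38 and 3.13e-88). Only 2 of the 20, at Cfap57 (1.3e-89 and 8.69e-78) and Larp6 (9.82e-79 and 4.12e-77), had the smaller value in replicate 1.

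The zone next to listed genes was described with 17 lists of kidney cell types, pathways and control tissues. For each list the share of genes nearest to at least 1 region stands beside the 3.7% of all protein-coding genes, and the number of regions per Mb of the intergenic sequence closest to those genes stands beside 1.65 per Mb (1.55 to 1.76) for all genes, since developmental genes often have wide flanks. A gene on several lists is counted in each, and these counts are a description without a test. The lists were chosen with earlier results of these data known, and the part of that choice in the shares was not tested. Over the kidney cell type and signalling lists together, 54 of 322 genes (16.8%, 12.9 to 21.3) were nearest to 84 regions, at 5.64 regions per Mb (4.50 to 6.99).

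Podocyte genes had the highest share of the lists, with an interval that overlapped those of Wnt (22.7%) and of BMP and TGF-beta genes (22.5%). Of 48 podocyte genes, 12 (25%, 13.6 to 39.6) were nearest to 18 regions, 8.37 per Mb (4.96 to 13.2). The lowest IDR on the list belonged to Vegfa, the growth factor by which podocytes maintain the glomerular capillaries. Its region on chromosome 17, 46049482 to 46049933, was 17.3 kb upstream of the gene with values of 1.44e-48 and 5.76e-99 in replicates 1 and 2. A second region lay 31.3 kb upstream (1.49e-07 and 4.93e-13). Inf2, an actin-nucleating formin of podocytes, had 3 regions on its 5′ side at 11.9, 12.3 and 33.8 kb, the strongest with values of 2.31e-18 and 5.43e-35. Tcf21, a transcription factor of podocytes and stroma, had 1 at 48.5 kb (4.88e-10 and 9.87e-17). Foxl1 had 2 at 2.35 and 3.00 kb, and Foxc2 stood 6.44 and 5.79 kb from them on the other side. In all of these pairs the value was smaller in replicate 2.

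At Wt1 itself the region on chromosome 2, 105097053 to 105097813, was 29.1 kb from the gene, with values of 4.41e-08 and 2.82e-21 and an IDR of 2.15e-04. A second overlap region in the zone around Wt1 was not reproducible. Outside the zone, Wt1 also had 1 reproducible region at a gene end. No overlap region fell in the zone around Nphs1, which encodes nephrin, or Podxl, which encodes podocalyxin. The intergenic sequence closest to Nphs1 was only 1.48 kb long, so that gene offered little room, while Podxl had 49.3 kb. Nphs1 had 1 reproducible region inside the gene.

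Of the nephron progenitor genes, 6 of 32 (18.8%, 7.21 to 36.4) were nearest to 8 regions, 4.64 per Mb (2.00 to 9.15). Six2, which keeps progenitors renewing, had a region on chromosome 17, 85737320 to 85737905, 49.4 kb on its 5′ side with values of 1.21e-30 and 1.1e-51, close to the outer limit of the zone. Uncx, a homeobox gene, had 3 on its 3′ side at 6.78, 19.9 and 24.5 kb, the nearest with values of 1.18e-22 and 7.06e-48. Hoxc11 had 1 at 3.29 kb, Meox1 1 at 2.80 kb and Rspo1, a secreted enhancer of Wnt signalling, 1 at 1.41 kb. The region of Osr1, a transcription factor of the early kidney mesenchyme, lay at 3.55 kb and only just passed, with values of 0.00333 and 6.37e-10 and an IDR of 0.0447. Pax2 had no overlap region in its zone and 2 reproducible regions inside the gene. Sox9 and Gas1 each had 1 overlap region in the zone, with an IDR of 0.455 and 0.434. Gas1 also had 1 reproducible region at a gene end, while Sox9 had none inside the gene or at its ends.

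Signalling ligands, receptors and effectors were also among the nearest genes. Of 40 genes of BMP and TGF-beta signalling, 9 (22.5%, 10.8 to 38.5) were nearest to 14 regions, 6.67 per Mb (3.65 to 11.2). Bmp7, a ligand needed for progenitor survival, had 2 on the same side, at 4.55 kb (7.96e-37 and 2.94e-96, the first sequence printed above) and at 25.3 kb (9.44e-32 and 7.57e-61). Both had values far below the medians over all 911 regions. The signal transducers Smad3 and Smad4 had 1 each, at 22.5 kb (1.8e-11 and 2.68e-23) and 4.798 kb (3.82e-10 and 2.01e-20), and Tgfbr3, a coreceptor, had 2 at 18.2 and 19.03 kb. Among the Id genes, which BMP signals induce and whose proteins block basic helix-loop-helix factors, Id4 had 3 at 15.4, 33.3 and 42.1 kb, Id2 1 at 36.2 kb (9.86e-09 and 6.66e-21) and Id1 1 at 10.7 kb (2.17e-06 and 1.25e-09).

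Of 44 genes of Wnt signalling, 10 (22.7%, 11.5 to 37.8) were nearest to 17 regions, 8.26 per Mb (4.81 to 13.2). Cxxc5, which encodes a zinc finger protein that dampens Wnt signals, led the list with 4 regions described below. The region next to Ctnnb1, the gene of beta-catenin, was the widest of all 911 at 1180 bp and lay 48.5 kb on the 5′ side (6.48e-25 and 8.16e-41). The receptor genes Fzd4 and Fzd10 had 2 and 1, the strongest 24.2 kb from Fzd4 (2.22e-19 and 2.87e-39). The ligand gene Wnt11 had 3 at 6.63, 16.4 and 36.9 kb, with an IDR of 7.13e-04, 5.22e-04 and 0.0444.

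Of 30 genes of Notch signalling, which sets cell fates along the nephron, 5 (16.7%, 5.64 to 34.7) were nearest to 11 regions. Their 12.9 regions per Mb (6.43 to 23.0) was the highest density of the 17 lists, and 7 of the 11 belonged to Hes1 alone. Notch1, a receptor, had 1 at 37.9 kb (1.41e-05 and 5.14e-11) with Egfl7 at a like distance of 39.3 kb, Notch3 1 at 2.76 kb, the ligand gene Dll1 1 at 3.05 kb (1.99e-04 and 2.51e-09) and Nrarp, a feedback inhibitor, 1 at 2.12 kb. The last had an IDR of 0.0497, just inside the threshold. For FGF signalling 5 of 34 genes (14.7%, 4.95 to 31.1) were nearest to 6 regions, 3.67 per Mb (1.35 to 7.99). The receptor genes had the lowest IDRs, Fgfr1 at 23.1 kb (9.55e-26 and 3.57e-54) and Fgfr2 at 40.7 kb (4.6e-30 and 2.06e-67). The feedback inhibitors Spry1 and Spry2 had 2 at 22.1 and 22.6 kb and 1 at 1.25 kb, and Etv4, a transcription factor induced by FGF signals, had 1 at 24.1 kb. Retinoic acid signalling had 2 of 19 genes (10.5%, 1.30 to 33.1), Crabp2 and Aldh1a3, and Hippo signalling 1 of 26 (3.85%, 0.0973 to 19.6), Tead1, both with intervals that include the 3.7% of all genes.

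In other kidney compartments, renal stroma had 4 of 27 genes (14.8%, 4.19 to 33.7), at 3.95 regions per Mb (1.59 to 8.15). Foxd1, the marker of stromal progenitors, had 3 regions on its 3′ side at 2.31, 9.43 and 34.9 kb, Dlk1 had 2 and Ren1, the renin gene, 1 at 6.03 kb (1.48e-19 and 3.99e-25). Ureteric bud genes had 4 of 28 (14.3%, 4.03 to 32.7), at 4.73 per Mb (1.90 to 9.74). They were led by Sox8 at 9.61 kb (1.65e-17 and 1.05e-39). Renal vesicle genes had 3 of 24 (12.5%, 2.66 to 32.4), at 2.68 per Mb (0.730 to 6.86). These were Osr2, Pax8, with 2 neighbouring regions at 3.45 and 3.83 kb, and Dll1. Matrix and integrin genes had 5 of 37 (13.5%, 4.54 to 28.8), at 4.34 per Mb (1.59 to 9.44). Among them were Lama5, a laminin chain of the glomerular basement membrane, at 1.52 kb (3.19e-06 and 2.32e-15), and Itga3, its integrin partner in podocytes, at 3.63 kb. Polarity genes had 2 of 28 (7.14%, 0.877 to 23.5), Pard6b and Crb2, at 1.74 per Mb (0.211 to 6.30). Of the lists in this paragraph only ureteric bud genes had a density interval above the 1.65 per Mb of all genes. That interval treats its 7 regions as independent, although 3 belonged to Wnt11 and 2 to Spry1, so it may be too narrow to set this list apart.

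Lists of other tissues were nearest to few regions. Endothelial genes had 1 of 24 (4.17%, 0.105 to 21.1), Ets1, liver genes 1 of 22 (4.55%, 0.115 to 22.8), Pck1, a gluconeogenic enzyme that kidney tubules also make, and immune genes 0 of 22 (up to 15.4%). Housekeeping genes had 0 of 27, which the interval limits to 12.8%, in 0.355 Mb of flanking sequence. These intervals all include the 3.7% of all genes, so at these list sizes no difference from it was detectable.

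**Figure D2:**
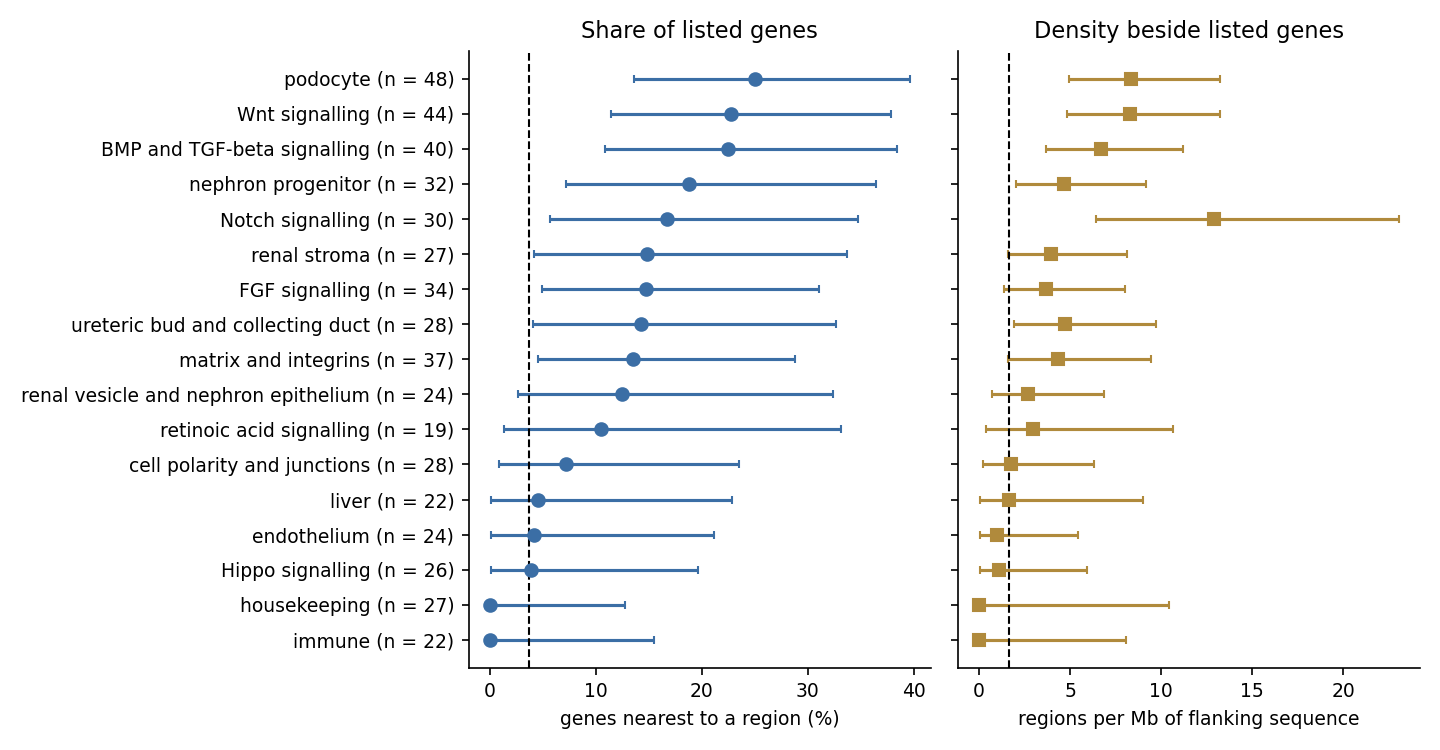
Left, the share of genes on each of 17 lists that were nearest to at least 1 reproducible intergenic region, with 95% Clopper-Pearson intervals; right, the number of such regions per Mb of intergenic sequence closest to the listed genes, with 95% exact Poisson intervals. Dashed lines mark all protein-coding genes (3.7% and 1.65 per Mb). Podocyte genes (25%) have the highest share and Notch genes (12.9 per Mb) the highest density, with intervals that overlap those of other lists.

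Most regions stood alone and some were grouped. Linked where neighbours were at most 50 kb apart, the 911 formed 738 groups. Of these, 618 were single regions and 120 held 293 regions (32.2%) between them. Another region was within 1 kb for 115 (12.6%), and whether such neighbours are parts of a single bound stretch was not tested. The 27 genes nearest to 3 or more were 0.131% of all genes.

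Hes1, a transcriptional repressor that Notch induces, was nearest to the most, with 7. The closest other protein-coding gene, Cpn2, was 154 kb from the last of these regions, and Hes1 itself stands at chromosome 16, 30065357 to 30067796. Below it regions lay 1.28, 2.13, 31.2 and 42.8 kb away and above it 3.09, 14.4 and 35.0 kb away, spanning 80.7 kb. The strongest were both distal. The region 31.2 kb below had values of 9.13e-32 and 1.87e-71 (IDR 4.43e-07), and that 35.0 kb above 7.48e-50 and 1.15e-36 (IDR 2.09e-06), smaller in replicate 1. The region 1.28 kb below had 6.24e-07 and 1.5e-18 (IDR 5.18e-04), and the other 4 had an IDR between 0.0202 and 0.0339.

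Cxxc5 and its neighbour Psd2, an activator of the ARF small GTPases, shared the group with the most regions, 10 regions over 55.3 kb of chromosome 18. The 4 closer to Cxxc5 lay 11.3, 17.2, 26.1 and 27.6 kb from it, and the last had values of 2.71e-53 and 0. The 6 closer to Psd2 lay 36.2 to 44.0 kb from it and were 58.1 to 66.0 kb from Cxxc5, with an IDR between 4.16e-04 and 0.0361. Ahdc1 had 5 regions at 2.98 to 17.1 kb and 4 more inside the gene, the strongest with values of 4.11e-47 and 3.26e-80. Il17b had 5 at 32.6 to 48.2 kb, of which 2 lay in the non-coding gene Bvht and 3 in Carmn, and the kinase gene Csnk1a1 stood almost as near the farthest, at 49.4 kb. Smug1, a DNA repair enzyme, had 4, of which 3 lay between it and the Hoxc cluster, with Hoxc4 73.2 to 98.8 kb away on their other side.

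There were also 3 groups of 4. Apba1 and Fam189a2 had 4 within 5.36 kb, the strongest with values of 7.96e-38 and 3.57e-81, and Copz1 and Gpr84 had 4 within 2.32 kb, the strongest with 9.45e-20 and 2.2e-50. Cyp1b1, a cytochrome P450 that takes part in retinoid and steroid metabolism, had 3 at 13.5, 31.2 and 43.2 kb, grouped with 1 next to Rmdn2 over 65.1 kb.

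**Figure D3:**
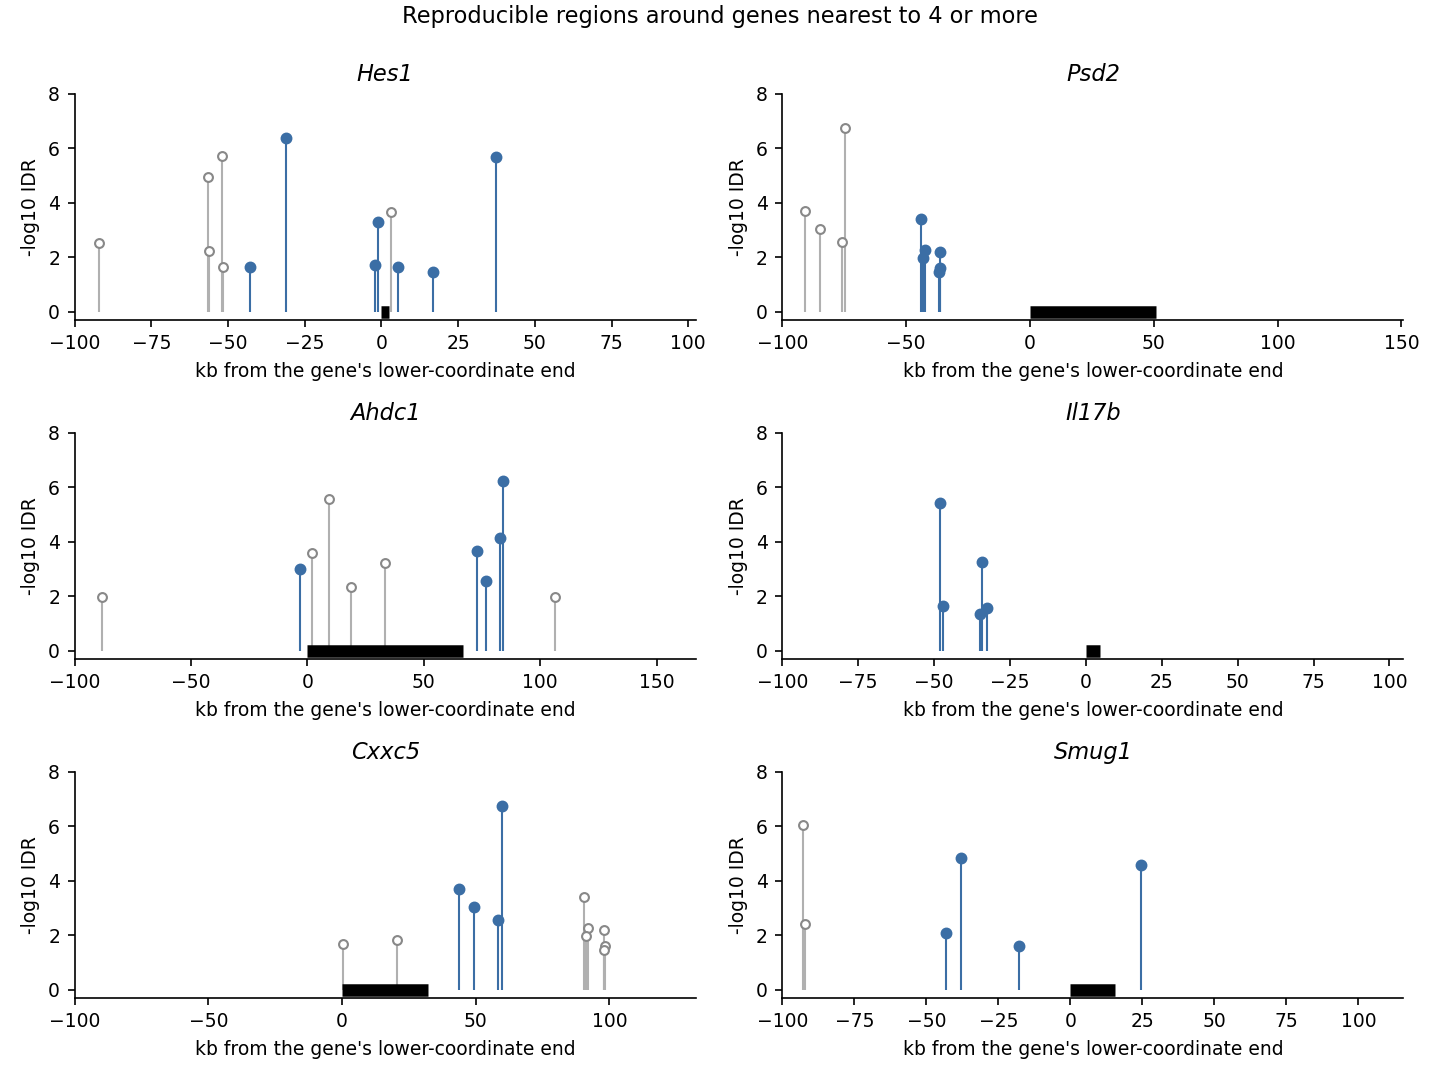
Reproducible regions within 100 kb of the 6 genes nearest to 4 or more, by distance in kb from the gene's lower-coordinate end (x) and −log10 of the IDR (y). Blue points are regions counted to the named gene, open grey points are other reproducible regions, and the black bar is the gene; the 7 blue points of Hes1 lie on both sides of it, while those of Psd2 and Il17b lie on the lower-coordinate side.

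The third question was how the regions compared between the replicates. Replicate 2 gave the smaller significance value in 829 of the 911 regions (91.0%), against 93.5%, 89.3% and 88.0% of reproducible regions at gene ends, inside genes and far from genes, so the offset was not limited to this zone. The median value was 2.46e-07 in replicate 1 (interquartile range 1.77e-12 to 1.00e-04) and 1.47e-13 in replicate 2 (7.02e-25 to 2.38e-08). By rank within each replicate's own list the regions stood alike, at a median of 2159 and 2191.5. Among the 4360 peaks with the smallest values of each list were 715 and 719 of the 911, and 625 (68.6%) were among those of both. The Spearman correlation of the values over the 911 regions was 0.787, a description across regions that the IDR had already chosen for their accordance.

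Of the 5 regions with the largest gaps in rank, 4 had an IDR between 0.0441 and 0.0490 and the other, next to Sdk1, had 0.0168. Next to Eno1, a glycolytic enzyme, the region had values of 0.0314 and 0.00867 and ranks of 35243 and 22318.5 (IDR 0.0462), and next to Nupr1, a stress-induced chromatin protein, 0.0314 and 0.00886 (IDR 0.0450). Both regions had weak values in both replicates and were narrow, at 130 and 114 bp. In contrast Inip (2.41e-05 and 4.22e-04) and Sdk1 (2.31e-09 and 7.87e-05) were stronger in replicate 1, and Lonrf2 (0.00347 and 1.83e-11) in replicate 2.

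IDR ran from 5.19e-08 to 0.0497 with a median of 0.00163. It was at most 1e-06 in 73 regions and at most 0.001 in 415 (45.6%), and above 0.01 in 291. Just inside the threshold stood the regions of Foxj2 (0.0497) and Nrarp (0.0497), and just outside those of Ptch1 (0.0501) and Mgmt (0.0502). At the inner limit Fcrls (1.006 kb) was the nearest inside, followed by Lmo4 (1.022 kb) and Lrch4 (1.032 kb), and Myo1a (0.990 kb) the nearest outside. At the outer limit Ier5 (49.9 kb), Cacna1b (49.9 kb) and Thy1 (49.9 kb) were the farthest inside and Cdkn2aip (50.1 kb) the nearest outside.

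**Figure D4:**
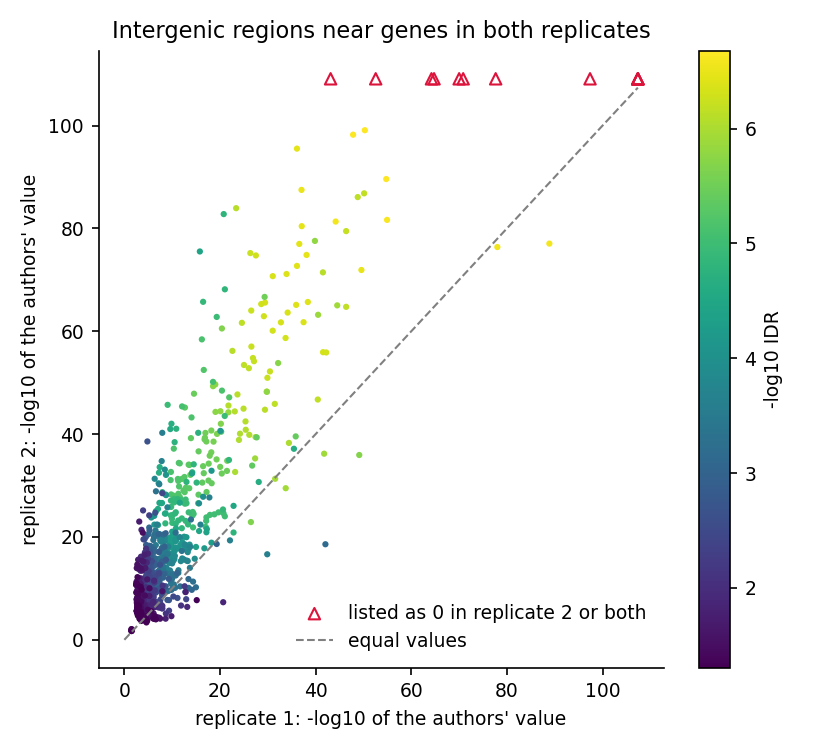
Each point is 1 of the 911 regions, by −log10 of the authors' significance value in replicate 1 (x) and replicate 2 (y), coloured by −log10 of the IDR; red triangles are the 13 regions listed as 0 in replicate 2, 5 of them also in replicate 1, drawn at the edge of the scale because 0 has no logarithm. Most points (829) lie above the dashed line of equal values.

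Widths had a median of 386 bp (interquartile range 272.5 to 540.5, from 48 to 1180). Reproducible regions at gene ends, inside genes and far from genes had medians of 339, 377 and 375 bp, with interquartile ranges that overlapped (250 to 462.5, 277 to 522 and 262 to 514). Overlap regions of the same zone that were not reproducible had a median of 198 bp (152 to 268). The peaks behind the regions had a median width of 293 bp in replicate 1 and 359 bp in replicate 2, and the peak was wider in replicate 2 for 585 regions, equal for 103 and wider in replicate 1 for 223. After the region of Ctnnb1 the widest lay next to LOC115489673 (1155 bp) and Erc1 (1131 bp), and the narrowest next to Gm40035 (48 bp).

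Regions of higher IDR were narrower, and their distance changed less. In 4 groups of about equal size from the lowest IDR to the highest, the median width was 549.5, 424.5, 326.5 and 287 bp, while the median distance was 14.3, 15.5, 13.4 and 12.1 kb. The share in non-coding genes was 18.9%, 23.7%, 15.8% and 19.4%. Each replicate contributed a single peak to 741 of the regions (81.3%), the start base was the same in both replicates in 30.4% and the end base in 30.6%, and 101 regions shared both edges.

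**Figure D5:**
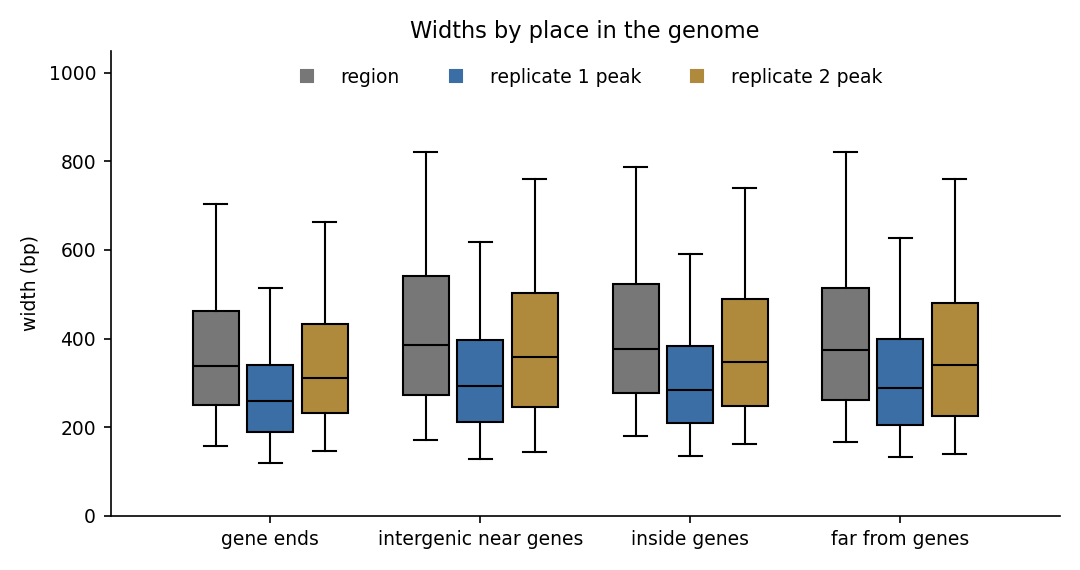
Widths in bp of reproducible regions (grey) and of the overlapping peaks of replicate 1 (blue) and replicate 2 (brown) in 4 places of the genome; boxes show the quartiles and median and whiskers the 5th and 95th percentiles. Intergenic regions near genes have a median of 386 bp, and in each place the peaks of replicate 2 are the wider ones by the median.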

How the data were processed

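WT1 ChIP-seq peaks of 2 samples were analysed. The deposited files, made by the authors, give for each peak a position and a value taken to be a q-value or p-value (the files do not say which), named significance value in the text. The deposited overlap table gives 1 value per region, read here as an IDR. The build was mm10 per the submitters' processing notes. Not given in the sources used here were the aligner, the peak caller and any use of IgG reads in calling peaks. Per the labels' protocols, precipitated DNA was digested with MseI together with AluI or HaeIII, and amplified by 18 rounds of PCR.

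Each region was placed by its midpoint against RefSeq genes of GRCm38.p6, the assembly behind mm10. Strand, known only for part of the genes, and sequences came from the RefSeq promoter windows. Of 512 listed symbols all matched, 501 of them on chromosomes 1 to 19. The members and the gene lists were chosen with earlier results of these data known. Genes are named by a rule: those nearest to the 20 lowest-IDR regions, up to 6 per list or family by lowest IDR, those nearest to 4 or more regions, the extremes of distance, width and rank gap, and 10 kidney genes. Results for some genes and lists are not reported here. Genes of groups of 4 regions, second genes, Id1 and genes at the thresholds were named after their values were seen. With 2 samples of 1 group no test was made. Shares carry 95% Clopper-Pearson intervals and densities exact Poisson intervals. Both cover counting error only and treat the genes or regions counted as independent. Alternatives were other limits of IDR and distance, whole extents, all gene types and each replicate alone. Functions were tested on simulated data. Software was Python 3.11.15, pandas 2.3.3, NumPy 2.4.6, SciPy 1.17.1 and matplotlib 3.10.9.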

Additional observations from a re-analysis of the deposited data

How the results depend on the processing

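The 7 summary results were recomputed under the alternatives, and 45 of these values stayed within counting error (counts within 1.5 times) while 21 moved. The number of regions fell from 911 to 573 and that of nearest genes from 764 to 506 with an outer limit of 20 kb. With outer limits of 20 and 100 kb, an inner limit of 5 kb and all gene types, in that order, the share of reproducible regions was 13.1%, 27.1%, 15.5% and 23.3% against 20.9%, the median distance 6.90, 21.0, 19.95 and 9.28 kb against 13.6 kb, and the share within 10 kb 65.6%, 31.8%, 21.0% and 52.1% against 41.3%, as the limits themselves impose. The median width of 386 bp became 445 bp at an IDR of 0.01 and 356 bp at 0.1. The share of listed kidney genes, 16.8% against 3.7% of all genes, became 11.8% at an IDR of 0.01 (all genes 2.60%), 11.2% with an outer limit of 20 kb (2.45%), 11.2% with an inner limit of 5 kb (2.77%) and 7.76% with all gene types (1.80%). Chosen after the data were seen, both flanking genes gave 19.3% (5.25%), and leaving out genes nearest to 4 or more regions 16.25%. From the best peaks of each replicate alone, chosen without the IDR, 905 to 928 lay in the zone, 20.8% to 21.3% of those peaks. Their median distance was 13.5 to 14.5 kb and their median width 293 to 385 bp. They gave 744 to 747 genes, 38.1% to 40.9% within 10 kb and 15.2% to 16.1% of listed kidney genes. No paired analysis was possible because the results come from 2 samples of 1 group and no test was made. The depth behind a peak is unknown, the nearest gene need not be the gene acted on, and with the IgG samples not analysed here the regions carry no background level.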

Other observations

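Gene families outside the kidney lists were described in the same way, beside the 3.7% of all genes. Of 41 forkhead transcription factor genes, 10 (24.4%, 95% Clopper-Pearson interval 12.4 to 40.3) were nearest to 13 regions, 6.35 per Mb (95% exact Poisson interval 3.38 to 10.9). They were led by Foxs1 at 3.61 kb (values 3.58e-16 and 2.78e-27 in replicates 1 and 2) and Foxb1 at 33.4 kb (1.33e-22 and 1.08e-35). Foxd1 and Foxl1 are also on the kidney lists. Of 39 Hox genes, 4 (10.3%, 2.87 to 24.2) were nearest to 5 regions, among them Hoxc4 at 23.6 and 24.2 kb, the nearer with values of 3.66e-28 and 3.75e-40. Nuclear receptors had 3 of 25 (12%, 2.55 to 31.2). These were Nr2f1, Nr1d1, a repressor of the circadian clock, and Nr2f2, which had 3 regions. Ephrins and Eph receptors had 3 of 21 (14.3%, 3.05 to 36.3), the strongest 30.1 kb from Epha4 (6.01e-43 and 1.31e-56). Adamts proteases had 3 of 24 (12.5%, 2.66 to 32.4), Eya genes and Six-type homeobox genes together 1 of 10 (10%, 0.253 to 44.5) and Dusp phosphatases 2 of 22 (9.09%, 1.12 to 29.2). Solute carriers had 19 of 376 (5.05%, 3.07 to 7.78), led by Slco4a1 at 7.51 kb (3.45e-32 and 1.31e-46), and Zfp genes 12 of 388 (3.09%, 1.61 to 5.34). Olfactory receptor genes had 1 of 1104 (0.0906%, 0.00229 to 0.504) in 23.8 Mb of flanking sequence. Kruppel-like factors (16 genes), T-box factors (14) and claudins (23) had 0, which the intervals limit to 20.6%, 23.2% and 14.8%. Families were taken by symbol, and their members can stand side by side in the genome, so their genes are not independent.

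Edges of peaks often fell at the recognition site of an enzyme used to cut the DNA. Inside RefSeq promoter windows, where sequence could be read, 24.5% of 992 peak starts in replicate 1 (21.8 to 27.3) and 17.1% of 1679 in replicate 2 (15.3 to 18.98) stood at AluI sites, against 0.526% of all window positions. For MseI the shares were 6.45% and 5.66% against 0.324%, and for HaeIII 0.706% and 0.655% against 0.611%. Peak ends gave 21.5% and 15.9% for AluI, 6.51% and 5.97% for MseI, and 0.310% and 1.52% for HaeIII. These are all peaks in the windows, and of the peaks of the regions described here 13 starts per replicate could be read, with 2 and 3 at AluI sites. The part of these sites in the widths, the shared edges and the place of the regions was not tested.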
